A study of Mus musculus with 3 samples.

Results

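The transcriptome of activated CD4 T cells labelled Dll1 -/- was compared with that of wild-type cells, as the level on the Dll1 knockout (KO) array minus the level on the wild-type (WT) array. The comparison rests on 2 of the 3 arrays of the series, 1 for each genotype, so no test was possible and each difference is a description of these arrays. Of the 20887 genes that the array's probes could be named for, 11812 were measured above background in both samples, which means that at least 1 of their probes passed the scanner's flag on each array, and are the members described here. They were reached by 15246 probes.

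Both groups were CD4 T cells from female C57BL/6 mice of 8 weeks, taken 2 days after stimulation. They differed in genotype only as far as the labels go: wild type in one and Dll1 -/- in the other. The remaining array held cells labelled Rbpj -/-, of the same strain, sex, age and time, and its levels are given for orientation without a comparison. How the cells were stimulated, how many mice were used, how the cells were purified and in which cells the gene was deleted cannot be read from the sources used here. The series title gives the question as survival signals received by activated CD4 T cells through Delta-like 1.

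Delta-like 1, the product of Dll1, is a transmembrane ligand of the Notch receptors. When a ligand on one cell engages a Notch receptor on a neighbour, the receptor is cleaved by ADAM proteases and then by gamma-secretase, and its intracellular part enters the nucleus and binds Rbpj, the DNA-binding factor through which canonical Notch targets are switched on. In T cells Notch is known for its part in lineage choice in the thymus and in helper T cell differentiation, survival and cytokine production after activation. Ligands can also alter the cell that carries them.

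A level is the log2 processed signal of a probe minus the 75th percentile of all non-control probes on that array, so a level of 0 lies at that percentile, and a difference of 1 is 2-fold. Feature Extraction, the scanner software, attaches an error to each spot. Carried over to a gene's difference, it was 0.20 for the median gene and 0.23 for the median gene in the dimmest of 3 equal groups by level. This error, given after the ± sign unless stated otherwise, covers the measurement of the spot and not differences between mice or cultures. Well above background were 46.6% of probes on the WT array and 50.1% on the Dll1 KO array, and 0 spots were saturated on either. Both arrays lay on 1 slide and shared 1 scan time, so neither separates the genotypes. Position on the array mattered to the largest values, and the place of probes is therefore stated for many genes, though not for all. Upper rows are the first 50% of the array's printed rows and lower rows the last 50%. A gene named without a place may have its probes in either part.

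The Dll1 probe did not check the genotype. Its level was -5.30 in WT, -5.43 in Dll1 KO and -5.12 in Rbpj KO, not well above background on any array, and its place relative to the deleted part is not given in those sources. The cells had the transcripts of CD4 T cells on both arrays. All 11 CD4 T cell markers on a list of that name were measured, with a summed linear level of 797 in WT and 777 in Dll1 KO (relative to the 75th percentile signal). Cd3e, part of the signalling module of the T cell receptor, was at 6.75 and 6.80, and Cd4 at 1.93 and 1.89. Cd8a stood at -1.59 in WT and -1.33 in Dll1 KO.

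Most transcripts lay close together on the arrays. Of the 11812 genes, 96.3% were within 1.5-fold, with a median difference of -0.03 and an SD over genes of 0.27. At least 2-fold apart were 90 genes (0.762%), 28 higher in Dll1 KO (0.237%) and 62 lower (0.525%). At the smaller size of 1.5-fold, 200 genes were higher (1.69%) and 238 lower (2.01%). With normexp background correction and quantile normalization the 2-fold counts were 6 higher and 6 lower, and scaling to the E1A spike-in spots gave 16 higher and 100 lower. That scaling moves every gene by -0.20, so that 13.8% of genes instead of 44.1% lie above WT; differences of gene groups are therefore also given against the median of all genes, which a change of scaling factor such as E1A's leaves as it is.

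The 2-fold differences were mostly those of dim genes in one part of the array. Of the 62 lower genes, 58 had all their probes in the upper rows and 3 all in the lower rows, although these rows held 4984 and 5074 genes. Among the 28 higher genes the numbers were 17 and 9. The dimmest of the 3 groups by level held 23 of the higher and 57 of the lower genes, against 2 and 1 in the brightest. Using only spots in the lower rows, 6828 genes gave 10 higher and 4 lower.

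**Figure D1:**
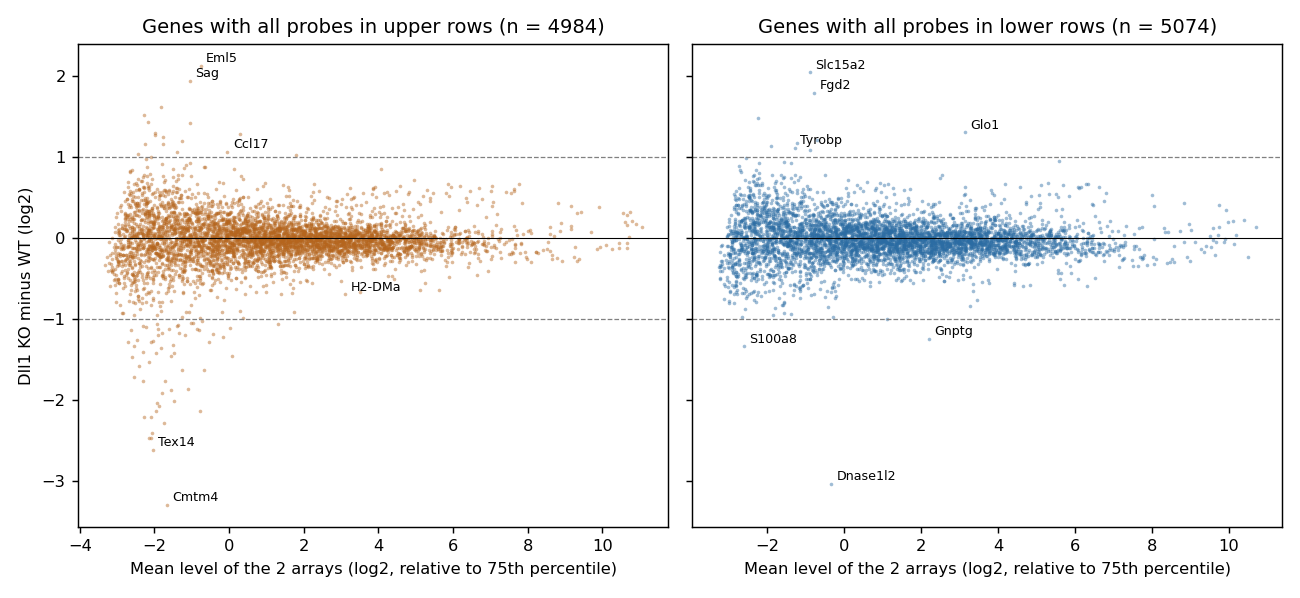
Dll1 KO minus WT (log2, vertical) against the mean level of the 2 arrays (log2 relative to the 75th percentile, horizontal), 1 point per gene, for 4984 genes with all probes in the upper rows (left) and 5074 with all probes in the lower rows (right); dashed lines mark 2-fold. The lower tail at dim levels is seen on the left (58 genes past 2-fold) and holds 3 genes on the right.

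Among genes with a probe in the lower rows, those farthest above WT were Slc15a2, Dnah8, Fgd2, Slc6a13 and Glo1. Slc15a2, a proton-coupled peptide transporter, was at -1.92 in WT, 0.12 in Dll1 KO and 0.06 in Rbpj KO. Its difference of 2.04 ± 0.25, or 4.11-fold, therefore set WT apart from both other arrays. Fgd2, an exchange factor for the GTPase Cdc42, was at -1.68, 0.11 and -2.50 in the same order, 3.46-fold higher in Dll1 KO than in WT. Glo1, the glyoxalase that detoxifies methylglyoxal, was a bright gene at 2.49, 3.80 and 2.31, a difference of 1.30 ± 0.20. Slc6a13, a GABA transporter, was dim throughout, at -2.97, -1.49 and -2.50.

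Dnah8, an axonemal dynein heavy chain, was the only gene with more than 1 measured probe whose probes were each at least 2-fold higher. Its 3 probes, of different sequence, gave differences of 1.90, 2.20 and 1.97, the first and second in the upper rows and the last in the lower rows. The mean level was 1.22 in WT, 3.24 in Dll1 KO and 1.01 in Rbpj KO. Among the 2868 genes with more than 1 measured probe, 3 others had every probe at least 1.5-fold higher. They were Zfp945, a zinc finger gene (0.72 ± 0.13, from 3 probes), Insr, the insulin receptor (0.71 ± 0.19), and Niban2 (0.67 ± 0.19). Every probe of 1 gene, the zinc finger gene Zfp444, was at least 1.5-fold lower, with a mean difference of -1.07. With normexp and quantile normalization Zfp945, Insr and Niban2 were 1.38-, 1.23- and 1.25-fold higher and Zfp444 was 1.33-fold lower. Each thus fell short of 1.5-fold, while Dnah8 was 3.23-fold higher. Insr, Niban2 and Zfp444 were in the dimmest of 3 equal groups by level, and the Insr probes lie in the upper rows. In 0 genes did probes point opposite ways by 1.5-fold each.

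Next in size among higher genes with probes in the lower rows were Gzmc, Tyrobp, Acvrl1, Upp1 and Lingo4. Gzmc, a granzyme of cytotoxic granules, was at -1.30 in WT, -0.10 in Dll1 KO and -1.00 in Rbpj KO (2.30-fold). Tyrobp, the DAP12 adaptor of activating receptors, was at -1.84, -0.74 and -2.08 (2.16-fold). Acvrl1, a receptor of the TGF-beta family, Upp1, a uridine phosphorylase, and Lingo4, a membrane protein, differed by 1.17, 1.13 and 1.08. All 5 were dim in WT, between -2.47 and -1.30.

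On the lower side of the lower rows one gene stood far from the rest. Dnase1l2, an endonuclease of the DNase I family, was at 1.19 in WT, -1.85 in Dll1 KO and 1.64 in Rbpj KO, 8.25-fold lower in Dll1 KO than in WT. Gnptg, a subunit of the phosphotransferase that tags lysosomal enzymes, followed among bright genes at 2.82, 1.57 and 3.53. Its 2 probes disagreed in size, with -1.93 and -0.57. S100a8, a subunit of calprotectin, was at -1.93, -3.27 and -1.23, and its partner S100a9, in the upper rows, at -0.23, -1.37 and 0.63. Rmrp, the RNA of the ribonuclease MRP, was 2.00-fold lower at 1.61 and 0.61. Skint4, Stap2, Nckap5l, Mfsd11 and Cog8, each on 1 probe and in the dimmest of 3 equal groups by level, had differences from -0.98 to -0.93. With normexp and quantile normalization they were 1.60-, 1.19-, 1.24-, 1.36- and 1.28-fold lower, and S100a8 was 1.37-fold lower. Dnase1l2, Gnptg and Rmrp were 3.54-, 2.10- and 1.86-fold lower in that setting.

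The largest values in the upper rows came mostly from dim genes. Higher in Dll1 KO were Eml5, a microtubule-associated protein (-1.82 in WT and 0.30 in Dll1 KO), and Sag, the arrestin of rods (-2.03 and -0.09), with Mtmr7 and Krt5 differing by 1.41 and 1.28. Lower were Cmtm4 (-0.02 and -3.32), Tex14, known from germ cell bridges (-0.73 and -3.35), and Krt42, Ska2, Agbl4, Vgll1, Uts2, Cbs, Cyp39a1, Sycn and Scn2a, with differences from -2.48 to -2.08. With normexp and quantile normalization Cmtm4 went from -3.30 to -1.39 and Eml5 from 2.12 to 1.19. All of these rest on 1 probe.

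A smaller set of genes was measured with repeated spots of the same probe, spread over both parts of the array. For 226 such probes, 220 of them named, with 3 to 10 usable spots each, the SD of the difference over spots was 0.08 for the median probe. Of the 220 named probes, only those of Nr4a3 and Csf2 were at least 1.5-fold higher and 0 were lower by that much, beside 1.69% and 2.01% of all genes. With normexp and quantile normalization Nr4a3 was 1.48-fold and Csf2 1.38-fold higher. Nr4a3, an orphan nuclear receptor that antigen receptor signals switch on, differed by 0.84 ± 0.11 (SD over 9 spots, lowest 0.72, highest 1.04). Csf2, which encodes GM-CSF, differed by 0.67 ± 0.09 (SD over 10 spots). Every usable spot of both lay above WT.

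Other repeated probes gave smaller differences that every spot shared. Fos, a subunit of the AP-1 transcription factor, was higher by 0.55 ± 0.17 (SD over 10 spots), Ctf1, a cytokine of the interleukin 6 family, by 0.47 ± 0.05 and Lta, lymphotoxin alpha, by 0.37 ± 0.06. Fgf2 was higher by 0.39 ± 0.05 (SD over 8 spots) and Il4, the interleukin 4 gene, by 0.25 ± 0.06. On the lower side Tap1, a subunit of the peptide transporter that supplies MHC class I, gave -0.56 ± 0.06, Calhm6 -0.39 ± 0.11 and Cd2, an adhesion receptor of T cells, -0.33 ± 0.04. The spots of the repeated Cd4 probe fell on both sides of WT, 4 of 9 above it. These SDs describe printing and scanning of 1 labelled sample, not the spread between cultures.

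**Figure D2:**
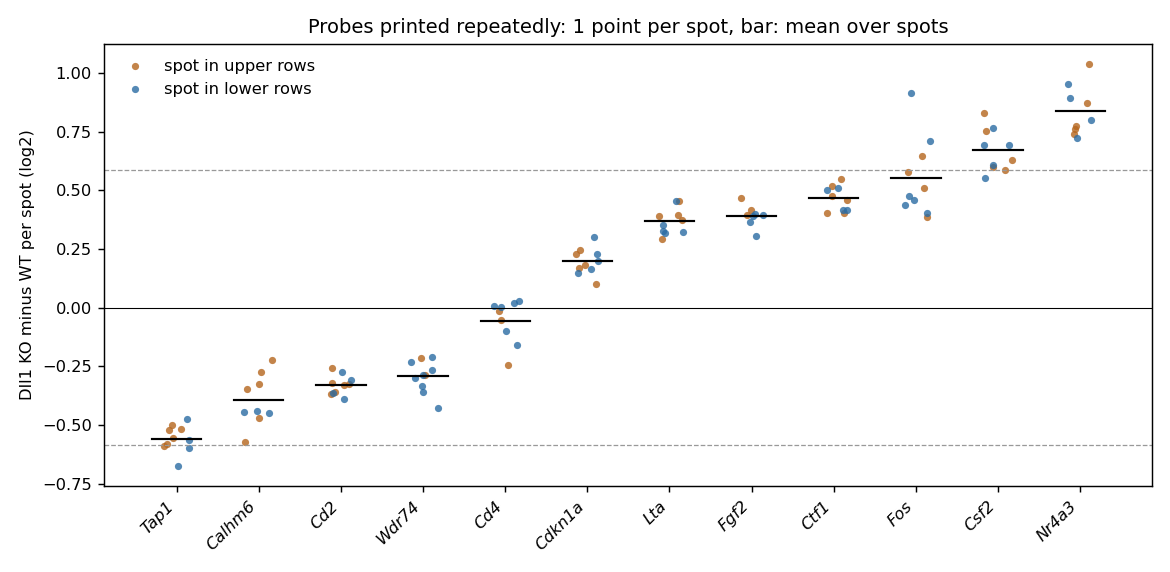
Dll1 KO minus WT (log2, vertical) for single spots of 12 probes printed repeatedly (genes on the horizontal axis), coloured by the part of the array; black bars are means over spots and dashed lines mark 1.5-fold. Spots from upper and lower rows intermingle for each gene, and all spots of Nr4a3 lie between 0.72 and 1.04.

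Genes that T cells switch on with activation were for the most part a little higher in Dll1 KO. Of 45 such genes on the list, 41 were measured, 32 above WT and 9 below, while 44.1% of all genes lay above WT. Their median difference was 0.20, or 0.23 above the median of all genes, and 33 of 41 lay above that median. Only 1 gene, Nr4a3, was 1.5-fold higher (1.69% of all genes) and 0 were 1.5-fold lower. With E1A scaling 21 of the 41 lay above WT. In spots of the lower rows alone, 20 of 27 lay above WT, with a median of 0.13.

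The higher activation genes included several that respond within hours to T cell receptor signals. Nr4a1, a relative of Nr4a3, was at 6.18 in WT, 6.75 in Dll1 KO and 6.19 in Rbpj KO. Cd69, an early activation antigen that holds cells in lymphoid tissue, was at 2.88, 3.42 and 2.72. Egr1, a zinc finger factor, was at 3.87, 4.29 and 3.43, and its relative Egr2 at 4.52, 4.86 and 4.32. In each of these 4 genes the Dll1 KO array was the highest of the 3. Bhlhe40 (0.51), Dusp4 (0.45) and Tnfrsf9, which encodes 4-1BB (0.34), were also above WT, though the 2 Tnfrsf9 probes gave 0.59 and 0.08. The AP-1 subunit Junb was lower by 0.56 on a dim probe in the upper rows, whereas Jun differed by -0.07 and Jund by -0.03. Fosb, well above background only in Dll1 KO, was at least 2.40-fold higher, and Cd40lg, which encodes the CD40 ligand and was well above background only in WT, at least 3.38-fold lower; both probes lie in the upper rows.

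Cytokine transcripts were also mostly above WT. Of 33 listed, 27 were measured, with 21 above WT and 6 below and a median of 0.15, which is 0.18 above that of all genes. At least 1.5-fold higher were 4 (Il21, Csf2, Il13 and Il9) and 0 were as much lower, beside 1.69% and 2.01% of all genes. With normexp and quantile normalization these 4 were 1.29-, 1.38-, 1.15- and 1.18-fold higher, each short of 1.5-fold. Il21, Il13 and Il9 were in the dimmest of 3 equal groups by level. Il21 and Il9 rest on probes in the upper rows and Il13 on a probe in the lower rows. With E1A scaling 12 of 27 lay above WT. In the lower rows alone 15 of 18 did.

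Il21, a cytokine that helps B cells, was at -1.94 in WT, -1.09 in Dll1 KO and -1.57 in Rbpj KO, from a dim probe in the upper rows. Csf2 was at -0.16, 0.51 and -1.44. Il3, a growth factor of haematopoietic cells, was at -1.00, -0.43 and -3.15, and Il2, the T cell growth factor, at 1.45, 1.87 and 0.26. For Csf2, Il3 and Il2 the Dll1 KO array was thus the highest and the Rbpj KO array the lowest. The type 2 cytokines Il13 (-2.63, -1.99 and -5.49) and Il9 (-1.72, -1.10 and -4.97) had the same order, although the Rbpj KO spots of Il3, Il13 and Il9 were not well above background, and Il4 lay at 2.04, 2.29 and -0.60. Lif, a member of the interleukin 6 family, was at 6.00, 6.34 and 4.78. Ifng, the gene for interferon gamma, differed by 0.11 and Tnf by 0.07, within the error of a gene. Il16, made by resting T cells as well, was the lowest of the list at -0.36.

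Read by helper lineage, type 2 genes had 13 of 15 measured members above WT (median 0.18) and type 1 genes 12 of 18 (0.12). Type 17 genes had 8 of 12 (0.14), and follicular helper genes 10 of 17 (0.02). With E1A scaling the members above WT were 7 of 15 for type 2, 5 of 18 for type 1, 6 of 12 for type 17 and 6 of 17 for follicular helper genes. In the lower rows alone 6 of 8 type 2 genes (median 0.23) and 7 of 11 type 1 genes (0.08) lay above WT, but 2 of 6 type 17 genes (-0.0061) and 4 of 8 follicular helper genes (-0.03). The lists share members, Il21 and Il9 among them. Of the lineage factors, Gata3 of type 2 cells differed by 0.14 and Tbx21 of type 1 cells by 0.24. Without genes of Dll1's own chromosome, among them the type 17 gene Ccr6, the type 17 median went from 0.17 to 0.07 above that of all genes.

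Genes of regulatory T cells had 15 of 20 measured members above WT, 10 of 20 with E1A scaling, and a median of 0.18. Foxp3, which specifies that lineage, was at 1.70 in WT, 2.10 in Dll1 KO and 2.95 in Rbpj KO. The inhibitory receptors Klrg1 (-1.93, -0.86 and -0.13) and Tigit (-2.24, -1.34 and -0.73) climbed in the same order. All 3 probes lie in the upper rows. Of the chemokines, Ccl17 was 2.09-fold higher at -0.58 in WT and 0.49 in Dll1 KO, on a probe in the upper rows. Cxcl10, a ligand of Cxcr3, was 1.60-fold higher at 0.59 and 1.27, on a probe in the lower rows. Cxcl9, another ligand of Cxcr3, was at -3.09 and -2.28, close to background.

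Interferon-stimulated genes, which cells raise against viruses on type I or type II interferon signals, were a little lower almost throughout. Of 64 on the array, 63 were measured, 57 below WT (90.5%) and 6 above, against 55.9% of all genes below WT. The brightest of 3 equal groups by level, which held 42 of the 63, had 62.0% below WT. This was not particular to the list: 94.1% of respiratory chain and 93.6% of cytosolic ribosomal protein genes lay below WT. The median difference of interferon-stimulated genes was -0.18, which is -0.15 against all genes. At 1.5-fold, 0 were lower (2.01% of all genes) and 2 higher (1.69%). In the lower rows alone 40 of 43 lay below WT. The median against all genes was -0.15 also without Dll1's chromosome, where 57 of the genes remained.

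Farthest below WT were Tap1 (1.85 in WT, 1.29 in Dll1 KO and 0.98 in Rbpj KO) and Irf7, a factor that amplifies interferon production (1.17, 0.62 and -0.34). Ifi35 stood at 3.32, 2.86 and 2.58, and Irf1, a factor induced by interferon gamma, at 2.78, 2.35 and 1.70. In these 4 genes the order of the arrays was WT, Dll1 KO, Rbpj KO from high to low. Ifit3 and Ifit1, which encode antiviral RNA-binding proteins, differed by -0.33 and -0.28, and Isg15, a ubiquitin-like modifier, by -0.17, less than the error of a single gene. The exceptions above WT were Cxcl9, Cxcl10, Ifi44, Isg20, Trim25 and Nlrc5.

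Interferon-stimulated promoters often hold the interferon-stimulated response element, to which interferon regulatory factors bind. It was searched here as GAAA, any 2 bases and GAAA again, on both strands. RefSeq promoters (GRCm38.p6, 250 bases before the gene's start) were found for 46 of the 63 genes, under 80%, so the check is void for the list as a whole. The element was present in 18 of the 46, and in 3.46% of the 27025 genes of the promoter table, which describes these promoters only. Shown are 4 of the genes that were lower and Cxcl10, which was higher, with the matches, which may overlap, in capitals; each runs 5′ to 3′ on the strand of its gene.
Ifit3, chr19:34583357-34583446, + strand: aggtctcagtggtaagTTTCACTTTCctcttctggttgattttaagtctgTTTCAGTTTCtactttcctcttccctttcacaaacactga
Ifit1, chr19:34640754-34640843, + strand: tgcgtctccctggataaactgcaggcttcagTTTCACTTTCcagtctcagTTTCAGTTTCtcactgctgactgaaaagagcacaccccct
Irgm2, chr11:58214863-58214952, + strand: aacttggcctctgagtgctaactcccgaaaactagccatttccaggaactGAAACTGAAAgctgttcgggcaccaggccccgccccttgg
Isg15, chr4:156200845-156200934, - strand: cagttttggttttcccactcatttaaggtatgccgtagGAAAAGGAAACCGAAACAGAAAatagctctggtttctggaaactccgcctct
Cxcl10, chr5:92349063-92349139, - strand: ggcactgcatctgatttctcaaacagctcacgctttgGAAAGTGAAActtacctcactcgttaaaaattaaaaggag
The element thus stands in promoters of genes on both sides of WT, with the differences -0.33, -0.28, -0.30, -0.17 and 0.68 in the order shown. The 18 genes that hold it had a median difference of -0.20 and the 28 with a promoter but no match -0.18.

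For cytokine genes the letters TGANTCA (N is any base), which cover the sites that AP-1 dimers bind, were searched in the same way. They were found in 5 of 22 cytokine promoters (22.7%) and in 5.57% of the 9504 measured genes with a promoter. Of the activation genes, 29 of 41 had a promoter, under 80%, and 2 of the 29 (6.90%) held the letters. Il9 and Lif, both above WT, are shown with the match in capitals.
Il9, chr13:56482361-56482447, - strand: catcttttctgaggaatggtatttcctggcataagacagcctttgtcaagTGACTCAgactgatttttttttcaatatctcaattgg
Lif, chr11:4257318-4257376, + strand: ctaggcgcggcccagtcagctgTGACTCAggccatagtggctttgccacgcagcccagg
The others with a match were Tnfsf14 (0.14), Il17a (-0.14) and Il16 (-0.36), so genes with the letters lay on both sides. The median was 0.14 with and 0.19 without a match.

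MHC class I presentation genes, which overlap the interferon list, had 15 of 19 measured members below WT with a median of -0.17. The class I heavy chain gene H2-D1 was at 7.63 in WT, 7.35 in Dll1 KO and 7.22 in Rbpj KO, and B2m, the common light chain, at 8.29, 8.09 and 8.07. The immunoproteasome subunits Psmb8, Psmb9 and Psmb10 differed by -0.24, -0.22 and -0.27. Class I genes and Tap1 lie on the chromosome of Dll1, and MHC genes are a multigene family whose probes may share signal. Without that chromosome 9 genes remained, with a median of -0.11 against all genes.

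**Figure D3:**
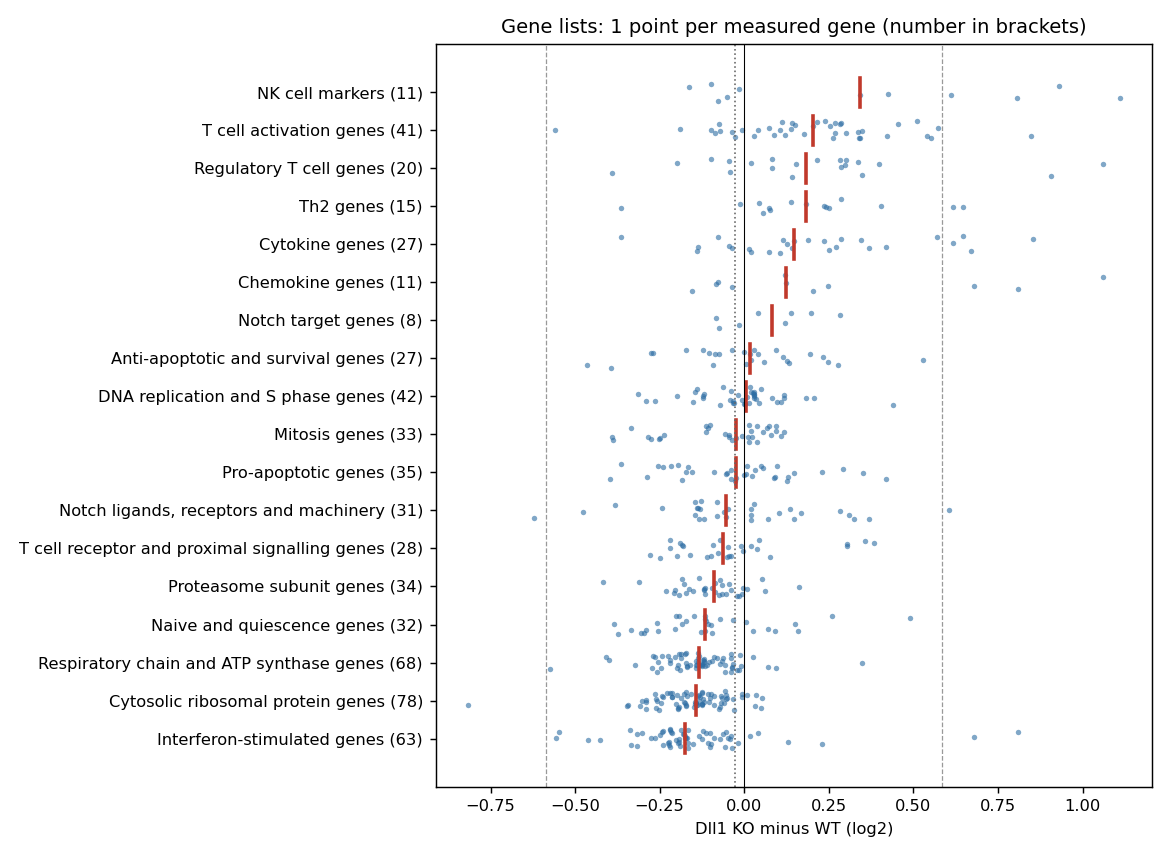
Dll1 KO minus WT (log2, horizontal) for the measured genes of 18 lists, 1 point per gene, ordered by list median (red bars); the dotted line is the median of all genes (-0.03) and dashed lines mark 1.5-fold. Activation and cytokine medians lie at 0.20 and 0.15, and the interferon-stimulated median at -0.18, with nearly all points inside 1.5-fold.

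Genes that guard against cell death lay close to WT. All 27 anti-apoptotic and survival genes on the array were measured, 15 above WT and 12 below, with a median of 0.02, and 0 were 1.5-fold apart (3.71% of all genes). Bcl2, the founding survival factor of its family, was at 4.17 in WT, 4.10 in Dll1 KO and 2.88 in Rbpj KO. Mcl1, needed for lymphocyte survival, was at 5.24, 5.11 and 4.78, and Bcl2l1, which encodes Bcl-xL, at 2.24, 2.35 and 1.80. The differences of these 3 between Dll1 KO and WT were smaller than the error of a gene. Pim3 and Pim2, kinases that promote survival, were lower by 0.46 and 0.39, whereas their relative Pim1 differed by 0.10. Bcl2l2, which encodes Bcl-w, was higher by 0.53 ± 0.26 on a dim probe in the upper rows, and Cflar, which restrains caspase 8, by 0.23.

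Pro-apoptotic genes gave a similar picture, with 16 of 35 above WT and 19 below, a median of -0.02 and 0 at 1.5-fold. The BH3-only gene Pmaip1, which encodes Noxa, was at 0.11 in WT, 0.53 in Dll1 KO and 0.65 in Rbpj KO. Bcl2l11, which encodes Bim, differed by -0.04 and Bbc3, which encodes Puma, by 0.01. The death receptor gene Fas differed by -0.04 and its ligand gene Fasl by 0.15. Casp4 was higher by 0.35, and the nucleases Endog and Dffb were lower by 0.40 and 0.36. Of the p53 targets 9 of 24 lay above WT, with a median of -0.04; Ei24 was the lowest at -0.58.

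Notch pathway transcripts varied within narrow limits. Of 38 ligand, receptor and machinery genes on the array, 31 were measured, 14 above WT and 17 below, with a median of -0.05, 1 gene 1.5-fold higher and 1 as much lower. Among ligands, Dll4 was at -1.39 in WT, -0.78 in Dll1 KO and -1.89 in Rbpj KO, a difference of 0.61 ± 0.23 from a probe in the upper rows. Jag2 differed by -0.06. Jag1 was not well above background on both arrays, nor was Dll3. Among receptors, Notch1 was at 2.87, 2.74 and 2.61 and Notch2 at 1.66, 1.58 and 1.35, differences smaller than the error. Notch3 and Notch4 were not well above background on either array.

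Of the proteases that cleave the receptor, Adam10 differed by 0.13 and Adam17 by -0.24, and of gamma-secretase, Psen2 by -0.15, Psenen by -0.14 and Aph1a by -0.48. Rbpj was at 1.04 in WT, 1.32 in Dll1 KO and 0.53 in Rbpj KO, and its 2 probes gave 0.24 and 0.33 for Dll1 KO against WT.

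Target genes of Notch gave 8 measured of 16, with 5 above WT and a median of 0.08. Dtx1, a sensitive target in T cells, was at 1.09 in WT and 1.07 in Dll1 KO, and at -1.50 in Rbpj KO. Hes5, a repressor of the Hairy family, differed by -0.08, Myc by 0.04 and Il2ra, the alpha chain of the interleukin 2 receptor, by 0.28. Hes1, Hey1, Hey2, Heyl and Nrarp were not well above background on both arrays. The letters TGGGAA, the core of the Rbpj site, stood in 2 of 7 target promoters and in 24.1% of all genes of the table.

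Receptors and effector molecules shared with natural killer (NK) cells included some of the larger differences. Of 17 such markers on the array 11 were measured, 6 above WT and 5 below, with a median of 0.34, 4 of them at least 1.5-fold higher (1.69% of all genes). With normexp and quantile normalization Tyrobp was 1.55-fold higher, and Fcer1g, Klra4 and Klra8 were 1.32-, 1.41- and 1.31-fold higher. In the lower rows alone 4 markers lay above WT and 4 below. Besides Tyrobp, Fcer1g, an adaptor of Fc receptors, was at 0.10 in WT, 0.71 in Dll1 KO and -0.06 in Rbpj KO. Klra4 and Klra8, Ly49 receptors, differed by 0.93 and 0.81, and the 2 Klra8 probes gave 1.04 and 0.57. Gzma, a granzyme, was at 2.00, 2.42 and -1.07. Probes for the Klra and granzyme families may share signal among relatives.

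The summed linear level of the NK list was 87.4 in WT and 85.8 in Dll1 KO; the defining NK marker Ncr1 was not well above background on either array, and Klrb1c was so in Dll1 KO only, at least 1.07-fold higher. Prf1, Klrd1, Cd244a and Nkg7, among the brighter markers, differed by -0.05, -0.02, -0.10 and -0.16. Among the brighter 50% of genes, the list's median against all genes was -0.04. In a bulk sample fewer cells of a type and less RNA per cell cannot be told apart, here and in the groups that follow.

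Most lists of markers of other cells held members on both sides of WT. The exception with more than 1 measured gene was that of gamma-delta and innate T cells, with 4 of 4 measured members above WT (3 of 4 with E1A scaling), a median of 0.28, and a summed level of 6.32 in WT and 7.52 in Dll1 KO. B cell and plasma cell markers had 7 of 14 above WT, by up to 0.30, with a summed level of 50.2 in both arrays. Cd79b differed by 0.00, while Cd22 and Fcrla were lower by 0.53 and 0.72. Fcrla was dim (-0.72 ± 0.33) and differed by -0.16 with normexp and quantile normalization. Macrophage markers had 5 of 7 measured above WT, with 48.3 summed in WT and 43.8 in Dll1 KO, and 12 of 23 were not well above background on either array. Dendritic cell markers had 4 of 11 above WT, summing to 655 and 705. Neutrophil and mast cell markers had 3 of 7 above WT, summing to 382 and 395, with 11 not well above background on either array. In the same list as S100a8 and S100a9, Camp was lower as well, by 0.40, while the member farthest above WT was higher by 0.40. Only 1 of the 7 was in the brightest of 3 equal groups by level, and the list's median level was -1.91 in WT and -1.81 in Dll1 KO. The part of these other cells in the results above was not tested.

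Bright housekeeping groups lay slightly below WT. Of 78 cytosolic ribosomal protein genes 73 lay below WT (median -0.14), and of 75 mitochondrial ribosomal protein genes 65 did (median -0.12). Respiratory chain and ATP synthase genes had 64 of 68 below WT (-0.13) and proteasome genes 30 of 34 (-0.09). Among the brightest of 3 equal groups of genes 62.0% lay below WT, with a median of -0.04. Rps2, a protein of the small ribosomal subunit, was apart from its group at 7.54 in WT, 6.72 in Dll1 KO and 7.52 in Rbpj KO. Its 2 probes gave -1.16 and -0.48.

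Proliferation genes were near WT. DNA replication genes had 22 of 42 above WT (median 0.01) and mitosis genes 15 of 33 (-0.02). Genes of naive and quiescent T cells had 8 of 32 above WT and a median of -0.12. Zbtb7b, the factor that fixes the CD4 lineage, was lower by 0.54 on average, but 2 of its 3 probes gave 0.10 and -0.09 and the dimmest, in the upper rows, -1.65. S1pr4, a sphingosine phosphate receptor, was 1.81-fold lower at 0.02 in WT and -0.84 in Dll1 KO. Csf2rb, the shared receptor chain for GM-CSF, was dim and lower by 0.95 on a probe in the upper rows.

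**Figure D4:**
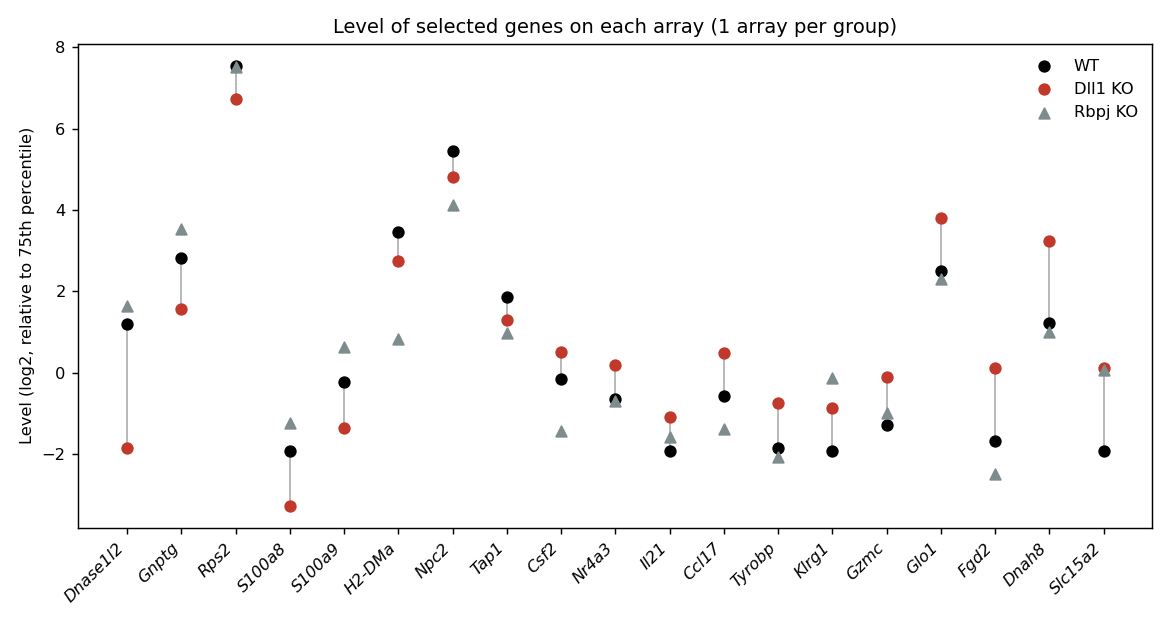
Level (log2 relative to the 75th percentile, vertical) of 19 genes on the WT (black), Dll1 KO (red) and Rbpj KO (grey triangle) arrays, with 1 array per group; grey lines join WT and Dll1 KO. Dnase1l2 shows the widest gap downward (1.19 to -1.85), and Dnah8 and Slc15a2 the widest upward.

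Several of the leading genes share a chromosome with Dll1, mouse chromosome 17. In the lower rows, 5 of the 14 genes at least 2-fold apart lie there: Dnah8, Glo1 and Fgd2 (higher), and Dnase1l2 and Gnptg (lower). Of its 382 genes with a probe in those rows, 5.50% were at least 1.5-fold apart, beside 3.19% of all genes and from 0.870% to 4.90% on the other chromosomes, of 20 compared. This chromosome was examined because Dll1 is on it, with the result in part already known.

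Along this chromosome, with probes in all rows counted, the share of genes at least 1.5-fold apart varied. Of 10 blocks of 62 or 63 measured genes along the chromosome, the first, which holds Dll1, had 8.07% of genes at that size but 0 at 2-fold, and the next 3 had 14.3%, 7.94% and 9.52%. The other 6 blocks had from 1.59% to 6.35%, with Cyp39a1 (-2.14) and Morn2 (-1.92), both in the upper rows, among them. The SD of differences was 0.56 in the second block and 0.53 in the fourth, and from 0.21 to 0.36 in the rest. By probes in the lower rows alone, the first block had 1 gene at least 1.5-fold higher and 1 lower, of 45. The next 3 had 3 and 2 of 38, 0 and 2 of 33, and 5 and 0 of 38. The other 6 had 0 or 1 higher and from 0 to 2 lower, of 33 to 44 genes. Without this chromosome's 627 genes, 25 genes were at least 2-fold higher and 55 lower.

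Neighbours in that order differed together in one stretch. Btbd9, Gm6402, Glo1, 1700097N02Rik and Dnah8 follow one another among the measured genes, and their differences were 0.52, 0.77, 1.30, 0.95 and 2.02. The genes to either side, Zfand3 and Glp1r, gave -0.14 and -0.01. On the Rbpj KO array Glo1, 1700097N02Rik and Dnah8 lay below their WT levels. Close to Dll1, zinc finger genes went both ways: Zfp945 and Zfp820 were higher by 0.72 and 0.60, and Zfp52, Zfp948 and Zfp40 lower by 0.68, 0.73 and 0.68. The probes of the higher genes lie in the lower rows and those of the lower genes in the upper rows. These genes belong to a large family whose probes may share signal, and except for Zfp945 each rests on 1 probe.

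**Figure D5:**
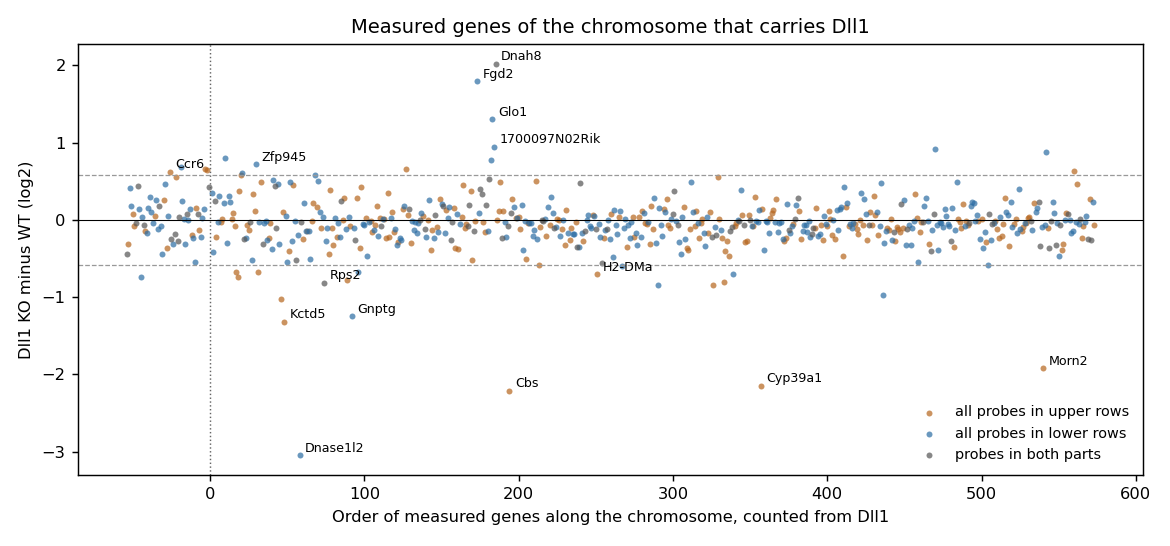
Dll1 KO minus WT (log2, vertical) for the 627 measured genes of the chromosome that carries Dll1, in gene order counted from Dll1 (horizontal; dotted line at Dll1), coloured by the part of the array; dashed lines mark 1.5-fold. Dnase1l2, Rps2 and Gnptg lie below and the stretch from Glo1 to Dnah8 above, within 185 measured genes of Dll1; Cbs (-2.21), Cyp39a1 (-2.14) and Morn2 (-1.92), all in the upper rows, lie farther away.

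Genes detected on only 1 array have a bound. Of the 20887 named genes, 790 were well above background in Dll1 KO alone, 76 of them at least 2-fold higher. In WT alone 288 were, of which 174 were at least 2-fold lower. The lowest signal that passed the flag was 19.2 on the WT array and 13.6 on the Dll1 KO array. The flag passed 46.6% and 50.1% of probes in that order, so the 790 and 288 were not counted at one threshold. Of these 76 and 174, 72 and 168 rest on probes in the upper rows. The largest bounds there were those of Avpr1a, the vasopressin receptor 1A (at least 8.15-fold higher), Cyp20a1, Cfap221 and Plxna2 on one side, and Olfr1311, an olfactory receptor (at least 13.9-fold lower), Adam34l, Psma8 and Arhgap42 on the other. In the lower rows the largest were Cx3cl1, a membrane-bound chemokine (at least 2.69-fold higher), and Ms4a5 (at least 2.99-fold lower).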

How the data were processed

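Per the labels, 20 ng of total RNA per sample was amplified, labelled with Cy3 and hybridised, giving 3 arrays. The authors deposited scanner files whose processed signal is a linear intensity after background subtraction and detrending in Feature Extraction (10.7 per the labels, 10.7.1.1 per the file headers), and a table of log2 values. Its entries equalled log2 of the processed signal shifted by 1 constant for each array, within 0.01 for 100% of probes, without centring per gene; the source of the constants is not stated.

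Non-control spots (59305) without outlier flags were averaged to 55681 probes, scaled to the 75th percentile of each array (log2 7.47 and 7.28) and kept where well above background on both arrays. Probes (27509) were named by accession through a RefSeq table of GRCm38.p6; 28172 were not named. The design was built on mm9, so that table gave names and gene order only. Probes of a gene were averaged. Samples were grouped by genotype label.

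The members and the 46 gene lists were chosen with earlier results of these data known. Genes were named by size: the 12 largest each way that were also 1.5-fold apart with normexp and quantile normalization, the 10 largest each way in the lower rows, genes with all probes 1.5-fold apart, list members 1.5-fold apart (otherwise the 2 largest), the 4 largest bounds each way, and Dll1, Rbpj, Notch and lineage genes. Other list members, genes of repeated probes and of chromosome 17, and bounds in the lower rows, were named after their values were seen. For a bound, the bright level was divided by the dim probe's own signal or, where higher, by the lowest signal that passed the background flag on that array. Python 3.11.15, pandas 2.3.3, R 4.3.3 and limma 3.58.1 (normexp, offset 50) were used, and the counting was tested on simulated data. With 1 array in each group the number of arrays limits how precise any value is, and alternatives are given in the closing section. The values of some genes counted in the lists are not reported here.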

Additional observations from a re-analysis of the deposited data

How the results depend on the processing

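Precision is limited by the single array per genotype; dim probes, of which those in the upper rows held most 2-fold differences, are the least certain. No paired analysis was possible because each group has 1 array and the labels carry no replicate numbers. Against 90 genes at least 2-fold apart (28 higher, 62 lower), normexp with quantile normalization gave 12 (6 and 6), the lower rows alone 14 (10 and 4), no filter on dim probes 1147 (528 and 619) and the brighter 50% of genes 5 (3 and 2). E1A scaling gave 16 higher and 100 lower, and keeping probes above background on 1 array 44 higher. Without the filter, list medians against all genes were 0.31 for activation (otherwise 0.23), 0.26 for cytokine (0.18), 0.13 for survival (0.04) and -0.066 for interferon-stimulated genes (-0.15). The NK median (0.37) was 0.20 with normexp, 0.19 with the brightest probe of each gene and -0.0375 in the brighter 50%. The macrophage median (0.24) was -0.088 without the filter and -0.14 in the brighter 50%. The cause of these changes was not tested, apart from the change in the genes or probes counted that a filter makes by construction. Over 11 alternatives, the last of which (without chromosome 17) was added after seeing the data, 989 of 1072 values of 116 named genes stayed within 0.27, the 95th percentile of the SD over repeated spots, 83 moved by more and 0 changed sign from at least 1.5-fold. Of 488 list values against the median of all genes, 439 stayed within 0.08, the median of that SD. Scaling to the array median or to E1A, and the deposited table, shift each array by a constant and so cannot move these list values. The deposited table also leaves gene values all but unchanged, as does taking the brightest probe for genes with 1 probe. Some of the 439 and 989 values therefore stayed by construction.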

Other observations

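Probes for long intergenic transcripts, which no gene list covers, gave a similar picture on the arrays. Of 16194 such probes 4778 were well above background in both WT and Dll1 KO, with 23 at least 2-fold higher and 47 lower (1.47%), and in the lower rows there were 6 and 8 among 2424. Among those rows 3 of the 4 largest lower values came from regions of chromosome 17 (mm9, as the array files give them). The region chr17:22335458-22466521 was at -0.14 in WT, -2.61 in Dll1 KO and 0.75 in Rbpj KO. The region chr17:22013350-22095775 was at -0.95, -2.56 and -0.41, and chr17:7002731-7032535 at -2.00, -3.27 and -1.58. In these regions the Dll1 KO array was the lowest of the 3, as it was for Dnase1l2 and Gnptg. The remaining one, chr10:62262341-62269593, was at -1.80, -3.23 and -1.61. These regions were picked for their size, so the count on chromosome 17 is a description.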
